A study of Homo sapiens with 6 samples.

Results

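Long noncoding RNAs known as snoRNA hosts, antisense transcripts or divergent transcripts were followed across 6 Affymetrix arrays of cells labelled TPC-1, a human papillary thyroid carcinoma line. The arrays fall into 3 labelled FAM60A shRNA and 3 labelled control shRNA. Cells of both groups were infected with an shRNA lentivirus, and how many shRNA sequences or separate cultures stood behind a group is not given in the sources used here, so the spread between arrays can be technical. The gene FAM60A, now called SINHCAF, encodes a component of SIN3-HDAC, a complex that represses transcription by removing acetyl groups from histones. Members were taken by symbol, from probe sets that the platform annotation gives exactly 1 gene symbol. They were chosen by symbol, as those that start with SNHG and a digit, those that end in -AS1, -AS2, -AS3, -DT or -IT1, and 9 named singly, after the log2 differences between the labels were known. This gave 139 of 18132 measured genes, from 204 of 44994 probe sets. Of the 9 named symbols, 6 (GAS5, NEAT1, H19, MEG3, CCAT1 and PVT1) are not analysed here. RefSeq lists every member as a long noncoding RNA.

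The members fall into 11 snoRNA host genes, 105 antisense genes, 21 divergent or intronic genes and 2 other long noncoding RNAs, MALAT1 and UCA1. EPB41L4A-AS1 was placed with the hosts because it carries the snoRNA SNORA13. Small nucleolar RNAs guide chemical modification of ribosomal and other RNAs: those of the C/D class direct methylation of the ribose, and those of the H/ACA class direct the conversion of uridine to pseudouridine. In human cells nearly all of them are cut from introns of a host transcript. Noncoding hosts are spliced and exported like mRNAs, several begin with the terminal oligopyrimidine (TOP) tract of ribosomal protein mRNAs, and many are removed by nonsense-mediated decay once ribosomes engage them. Antisense and divergent RNAs are read from the strand opposite to a gene, within it or from a shared promoter, and a few are known to act on that gene.

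The values were log2 expression values set relative to each probe set's median over the 6 arrays, so they show differences between arrays and not levels. A gene is the mean of its probe sets, and a difference is the mean of the 3 arrays labelled FAM60A shRNA less the mean of the 3 labelled control shRNA. As these are bulk samples, fewer cells of a type and less RNA per cell cannot be told apart. A gene is called where its adjusted p in a limma fit over all 18132 genes, n = 3 arrays per group, was under 0.05. Since results of these arrays were known when the genes were proposed, their calls and differences are a description, with no p-value attached. A coarse class of the level before centring was read from the rounding of the values, as 2 to 4, 4 to 8 or 8 and more on the log2 scale.

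SINHCAF, the target by name of the shRNA, went against the label, with more signal under FAM60A shRNA. Its values were 0.63, 0.57 and 0.60 in the arrays labelled FAM60A shRNA and -0.58, -0.66 and -0.68 in the arrays labelled control shRNA, a log2 difference of 1.24 ± 0.038 (SE). The groups are therefore named by their labels throughout, and no direction below follows a measured loss of SINHCAF. The extraction protocol names DLD1, a colorectal line, in place of TPC-1. Of 9 intestinal markers, 6 were called higher and 0 lower. A probe set in the class of 8 and more was found for 3 of the 9 (CDX2, CDH17 and KRT20), and 1 (VIL1) had every probe set in the class of 2 to 4. Of 8 measured thyroid markers, 1 was called, HHEX, which was lower. A probe set in the class of 8 and more was found for 0 of the 8, and 1 (TSHR) had every probe set in the class of 2 to 4. Over all genes 8136 (44.9%) were called, 3595 higher (19.8%) and 4541 lower (25.0%), and the groups did not overlap in 9642 (53.2%). The larger number of lower calls depended on the scaling, with 3929 higher and 4183 lower after quantile normalization again and 4063 higher and 4049 lower after cyclic loess.

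The starts of the host genes are shown because TOP transcripts are recognised by a run of pyrimidines at the first base. Each line gives 40 bases before and 30 bases from the start that RefSeq annotates on GRCh38.p14, 5′ to 3′ on the gene's strand. Capitals mark the unbroken run of C and T that covers the start, which can take in bases before it. They are in the order of the log2 difference, from the highest, and SNHG9 had no entry in the table.
EPB41L4A-AS1 (chr5:112160486-112160555, + strand): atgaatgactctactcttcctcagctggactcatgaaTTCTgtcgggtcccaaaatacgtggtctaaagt
SNHG8 (chr4:118278722-118278791, + strand): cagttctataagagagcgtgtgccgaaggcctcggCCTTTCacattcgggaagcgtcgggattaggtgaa
SNHG12 (chr1:28581844-28581913, - strand): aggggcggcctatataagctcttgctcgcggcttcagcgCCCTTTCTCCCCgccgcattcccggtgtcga
SNHG1 (chr11:62855856-62855925, - strand): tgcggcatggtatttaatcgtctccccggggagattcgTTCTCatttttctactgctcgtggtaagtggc
SNHG32 (chr6:31834876-31834945, + strand): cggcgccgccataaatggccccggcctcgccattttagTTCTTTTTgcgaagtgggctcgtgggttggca
SNHG7 (chr9:136728155-136728224, - strand): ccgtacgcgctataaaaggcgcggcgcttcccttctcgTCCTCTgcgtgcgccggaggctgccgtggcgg
SNHG29 (chr17:16438947-16439016, + strand): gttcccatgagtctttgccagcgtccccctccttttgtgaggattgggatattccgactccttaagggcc
SNHG17 (chr20:38435299-38435368, - strand): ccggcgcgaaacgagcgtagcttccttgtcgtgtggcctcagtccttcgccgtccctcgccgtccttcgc
SNHG28 (chr1:159855008-159855077, - strand): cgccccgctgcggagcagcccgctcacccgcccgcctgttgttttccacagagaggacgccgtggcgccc
SNHG11 (chr20:38446614-38446683, + strand): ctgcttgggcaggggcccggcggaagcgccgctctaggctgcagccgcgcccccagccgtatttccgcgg

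A run of at least 5 pyrimidines covered the start in 5 of the 10 hosts with an entry (50.0%), against 1585 of 14425 measured genes with an entry (11.0%). All 5 of these hosts, SNHG8, SNHG12, SNHG1, SNHG32 and SNHG7, were called higher. The run was longest in SNHG12, with 12 bases, and had 8 in SNHG32, 6 in SNHG8 and in SNHG7, 5 in SNHG1 and 4 in EPB41L4A-AS1. SNHG29, also called higher, and SNHG17, SNHG28 and SNHG11 begin with a purine at the annotated base. Among the antisense genes 6 of 76 (7.89%) had such a run, and among measured mRNAs listed for their TOP tract 13 of 17 did (76.5%). This length and position were chosen after the sequences were seen, and a start annotated a few bases off would hide a tract. The run also counts bases before the annotated start, so its length is not that of a tract at the first base. In SNHG8 and EPB41L4A-AS1 the run ends at the annotated start. The E-box CACGTG, searched on both strands over the 300 bases of the promoter entry, was found in 1 of the 10 hosts (10.0%) and in 10.9% of measured genes. The amino acid response element TGATGNAA was found in 0 of the 10 hosts, in 0 of 103 members with an entry and in 3.62% of measured genes.

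Among the 11 snoRNA host genes 7 were called higher under FAM60A shRNA and 1 was called lower, with a median log2 difference of 0.33 against -0.01 over all genes. The share of all genes called higher was 19.8%. The groups did not overlap in 8 of the 11, against 53.2% of all genes. EPB41L4A-AS1, SNHG8 and SNHG12 lay furthest apart, each more than 1.5-fold higher, while the hosts SNHG9, SNHG17 and SNHG28 were not called.

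EPB41L4A-AS1, the host of the H/ACA snoRNA SNORA13, had values of 0.39, 0.36 and 0.37 in the arrays labelled FAM60A shRNA, against -0.48, -0.42 and -0.36 in the arrays labelled control shRNA. The 3 arrays of each label stood close together and 0.72 log2 units separated the nearest ones. The log2 difference was 0.80 ± 0.039 (SE), a 1.74-fold higher signal. SNHG8, which holds SNORA24, had 0.41, 0.40 and 0.29 in the arrays labelled FAM60A shRNA, against -0.42, -0.49 and -0.29 in the arrays labelled control shRNA. Its difference was 0.77 ± 0.061 (SE), or 1.70-fold. In both labels the third array lay nearest to the other group, and the groups stayed apart.

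SNHG12 holds the H/ACA snoRNAs SNORA16A, SNORA44 and SNORA61 and the C/D snoRNA SNORD99. It had 0.31, 0.34 and 0.32 in the arrays labelled FAM60A shRNA, against -0.31, -0.36 and -0.36 in the arrays labelled control shRNA. The difference of 0.67 ± 0.031 (SE), or 1.59-fold, was seen at both of its probe sets, at 0.62 and 0.71. SNHG1 carries 8 named C/D snoRNAs, SNORD22 and SNORD25 to SNORD31. It had 0.31, 0.16 and 0.17 in the arrays labelled FAM60A shRNA, against -0.16, -0.29 and -0.24 in the arrays labelled control shRNA. In SNHG1 the first array of each label was the highest of its group, and the difference was 0.44 ± 0.054 (SE), or 1.36-fold.

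SNHG32 holds SNORD48 and SNORD52, of the C/D class. Its values were 0.15, 0.21 and 0.18 in the arrays labelled FAM60A shRNA, against -0.16, -0.15 and -0.17 in the arrays labelled control shRNA, and its probe sets differed by 0.32 and 0.36. SNHG7, the host of SNORA17A and SNORA17B, had 0.12, 0.18 and 0.23 in the arrays labelled FAM60A shRNA, against -0.16, -0.15 and -0.14 in the arrays labelled control shRNA. Its log2 difference was 0.33 ± 0.037 (SE), beside 0.34 ± 0.031 for SNHG32, so both were about 1.25-fold higher with no overlap. The probe set of SNHG7 in the class of 8 and more differed by 0.43 and the one in the class of 4 to 8 by 0.22.

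SNHG29, which holds SNORD49A, SNORD49B and SNORD65, had the smallest called rise among the hosts. Its values were 0.12, 0.13 and 0.11 in the arrays labelled FAM60A shRNA, against -0.11, -0.16 and -0.15 in the arrays labelled control shRNA, a difference of 0.26 ± 0.030 (SE). Of its 3 probe sets, those in the class of 8 and more differed by 0.37 and 0.35, and the one in the class of 2 to 4 by 0.07. The gene mean thus lies below what the brighter probe sets show.

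SNHG11, the host of SNORA60 and SNORA71E, ran the other way. Its values were -0.11, -0.01 and -0.09 in the arrays labelled FAM60A shRNA, against 0.09, 0.01 and 0.11 in the arrays labelled control shRNA. The second array of each label all but met, and the difference was -0.14 ± 0.042 (SE). It lost its call under cyclic loess (-0.116), and without replicate 1 (-0.126) or 3 (-0.132) of FAM60A shRNA or replicate 1 (-0.136) or 3 (-0.122) of control shRNA. SNHG17, which carries SNORA71A to SNORA71D and lies beside SNHG11 on chromosome 20, had 0.24, -0.09 and 0.07 in the arrays labelled FAM60A shRNA, against -0.07, -0.17 and 0.08 in the arrays labelled control shRNA. Its groups overlapped, with a difference of 0.13 and a 95% interval of -0.10 to 0.35. SNHG9, the host of SNORA78, differed by 0.04 (-0.04 to 0.13) and SNHG28 by -0.02 (-0.18 to 0.13). These intervals leave room for changes as large as that of SNHG29 for SNHG17 alone of the 3.

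**Figure D1:**
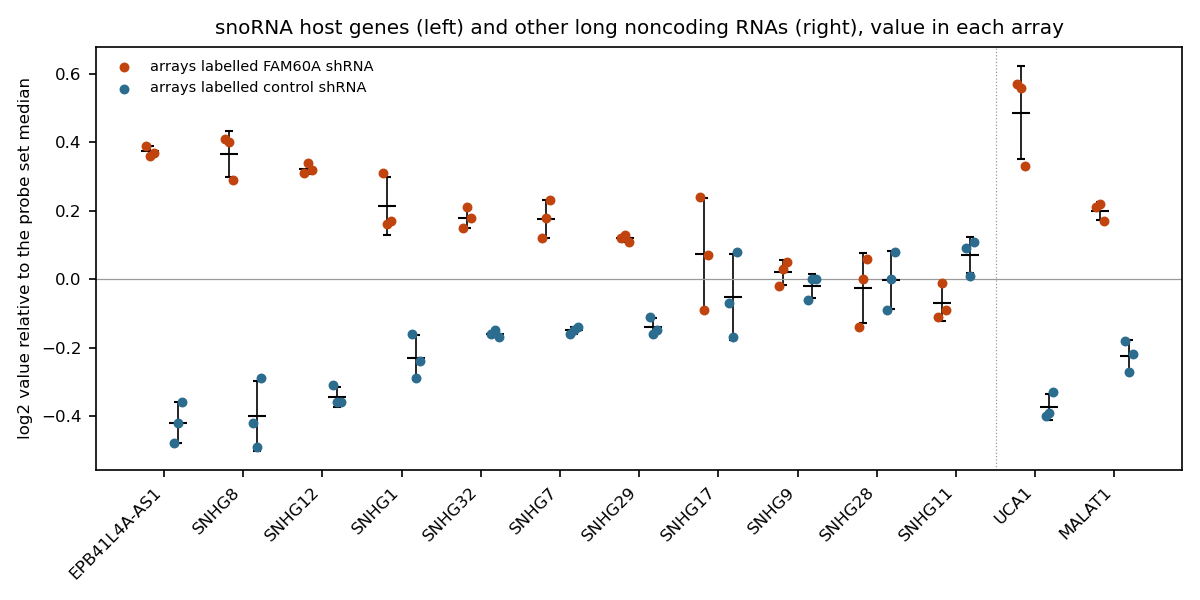
Log2 value relative to the probe set median (vertical axis) of 11 snoRNA host genes and of UCA1 and MALAT1, with 1 point per array, a dash at the mean of 3 arrays and bars of 1 SD. The arrays labelled FAM60A shRNA lie above those labelled control shRNA without overlap in 7 hosts, UCA1 and MALAT1, and below them in SNHG11.

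Each of the 7 hosts called higher had a probe set in the class of 8 and more, and the differences of these probe sets ran from 0.32 in SNHG32 to 0.80 in EPB41L4A-AS1. Of the other 4 hosts, SNHG17 was in the class of 8 and more, and SNHG9, SNHG11 and SNHG28 were in that of 4 to 8. Whether the level itself had a part in these calls was not tested. Over all genes the share called was 9.7% where every probe set lay in the lowest class and 52.5% elsewhere.

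ZFAS1, a further noncoding snoRNA host whose symbol lies outside the rule, had 0.36, 0.30 and 0.33 in the arrays labelled FAM60A shRNA, against -0.30, -0.32 and -0.33 in the arrays labelled control shRNA. Its difference of 0.65 ± 0.031 (SE) was close to that of SNHG12. Of 26 measured protein-coding genes listed as snoRNA hosts, 19 were called higher and 0 lower, with a median of 0.18. Over all genes 19.8% were called higher and 25.0% lower. This list holds mostly genes of ribosomal proteins and translation factors, so its counts do not stand for protein-coding hosts at large. The RNA helicase gene EIF4A1 (0.73), TAF1D (0.69), a subunit of the RNA polymerase I factor SL1, RPL3 (0.48) and the elongation factor gene EEF2 (0.40) were among them, while TPT1 (-0.01) and RPL30 (-0.05) were not called. Of 23 other mRNAs listed for a TOP tract, 11 were called higher and 1 lower, with a median of 0.10, led by the importin gene IPO5 (0.56), EIF4B (0.29) and EEF1A1 (0.29). The one that fell was VIM (-0.19).

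By position, RefSeq places a snoRNA gene inside the bounds of 12 members, the 11 hosts and STARD7-AS1, which was called higher with a difference of 0.20. A snoRNA gene was left out only where both strands were known and differed, and SNHG9 had no entry for this check. The same strand is therefore not shown for every gene counted. RefSeq likewise places a snoRNA gene inside 533 measured genes that are no members. Of these, 149 were called higher (28.0%) and 125 lower, with a median log2 difference of 0.01. The difference between these genes and the 11 hosts was not tested.

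Of the 4 core proteins of C/D particles, 3 were called higher. NOP56 had 0.23, 0.20 and 0.21 in the arrays labelled FAM60A shRNA, against -0.21, -0.22 and -0.22 in the arrays labelled control shRNA. FBL, the methyltransferase fibrillarin, differed by 0.34 and NOP58 by 0.19, and SNU13 (0.01) was not called. NOP56 and NOP58 themselves carry snoRNAs in their introns, as does DKC1 of the H/ACA particles, and each is also counted among the protein-coding hosts. Of the 4 core proteins of H/ACA particles, the pseudouridine synthase gene DKC1 (0.38) and NHP2 (0.15) rose, and NOP10 (-0.33) and GAR1 (-0.17) fell. Their directions were the same in all 13 alternative settings in which each was fitted. Of 12 assembly and trafficking factors, 3 rose and 6 fell. NOLC1, the nucleolar chaperone that carries snoRNPs, rose by 1.85 ± 0.031 (SE), with TCOF1 (0.37) and the ATPase gene RUVBL1 (0.40), and NOPCHAP1 (-0.28), NAF1 (-0.26) and NUFIP1 (-0.18) fell.

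Of 15 measured factors of nonsense-mediated decay, which removes many spliced host transcripts, 5 were called higher and 6 lower. UPF1, its central helicase, differed by -0.03 and was not called, as was the kinase gene SMG1 (-0.02). The termination factor genes GSPT1 (0.46) and ETF1 (0.35), EIF4A3 (0.41) and UPF2 (0.27) rose, and SMG9 (-0.45), SMG5 (-0.46) and SMG8 (-0.37) fell. Of 16 mRNAs known as targets of this decay, 11 were called higher and 1 lower, with a median of 0.28. GADD45A (0.79), ASNS (0.79), SESN2 (0.71), DDIT3 (0.61) and ATF4 (0.49) rose and CLK1 (-0.39) fell. Several of these are also induced by the stress factor ATF4, and decay and transcription cannot be told apart in these values.

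**Figure D2:**
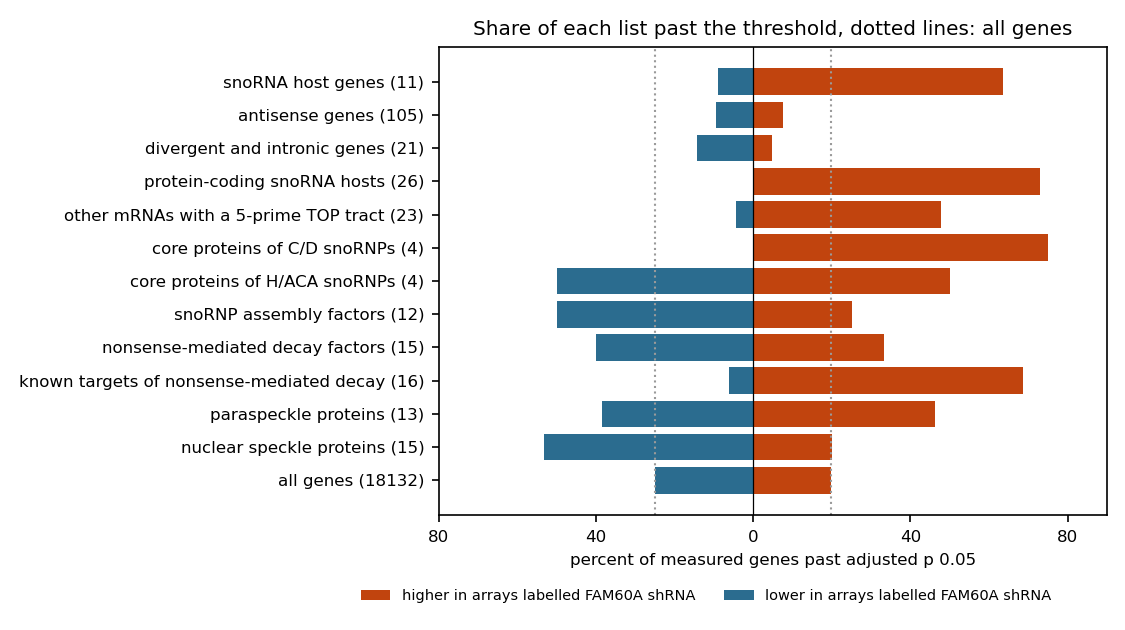
Percent of the measured genes of each list past an adjusted p of 0.05 in the fit over all genes (horizontal axis), with higher in the arrays labelled FAM60A shRNA to the right, lower to the left, and the number measured in brackets. Dotted lines mark all genes, at 19.8% higher and 25.0% lower; 7 of 11 snoRNA hosts and 19 of 26 protein-coding hosts were higher, against 8 of 105 antisense genes.

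UCA1, a long noncoding RNA first described in bladder carcinoma, had the largest difference of the 139 members. Its values were 0.57, 0.56 and 0.33 in the arrays labelled FAM60A shRNA, against -0.40, -0.39 and -0.33 in the arrays labelled control shRNA. The groups lay 0.66 apart, with the third array labelled FAM60A shRNA below the other two, and the difference was 0.86 ± 0.066 (SE), a 1.81-fold higher signal from 1 probe set in the class of 4 to 8.

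MALAT1, an abundant RNA of nuclear speckles, the bodies where splicing factors gather, was 1.34-fold higher. It had 0.21, 0.22 and 0.17 in the arrays labelled FAM60A shRNA, against -0.18, -0.27 and -0.22 in the arrays labelled control shRNA, a difference of 0.43 ± 0.035 (SE). The groups did not overlap, but its 3 probe sets differed in size, with 0.75, 0.27 and 0.26. Of 15 nuclear speckle proteins 3 were called higher and 8 lower, and those that fell include the kinase genes CLK1 (-0.39), CLK2 (-0.25), CLK3 (-0.24) and CLK4 (-0.18), which phosphorylate SR splicing factors. Of 13 measured proteins of paraspeckles, bodies built on another long noncoding RNA, 6 rose and 5 fell, with NONO at 0.67, DAZAP1 at 0.55, PSPC1 at -0.29 and ZC3H6 at -0.68.

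Most antisense genes were not called. Of the 105, 8 were called higher and 10 lower (17.1%), beside 44.9% of all genes, and the groups did not overlap in 22 (21.0%), beside 53.2%. Their median log2 difference was -0.01, and the differences ran from -0.64 to 0.44, with 69 of the 105 within 0.1 of 0. Of the 21 divergent and intronic genes, 1 was called higher and 3 lower, from -0.46 to 0.27. In 25 of the 105 (23.8%) every probe set lay in the lowest class, beside 17.9% of all genes. Of those 25, 1 was called, NCAM1-AS1 at -0.15, with an adjusted p only just under the threshold. Of the other 80 antisense genes 17 were called (21.2%), beside 52.5% of all genes above that class. All classes above the lowest are pooled in these 2 shares, so they are not matched on level. The genes that were not called are not shown to be unchanged, least of all those in the lowest class.

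**Figure D3:**
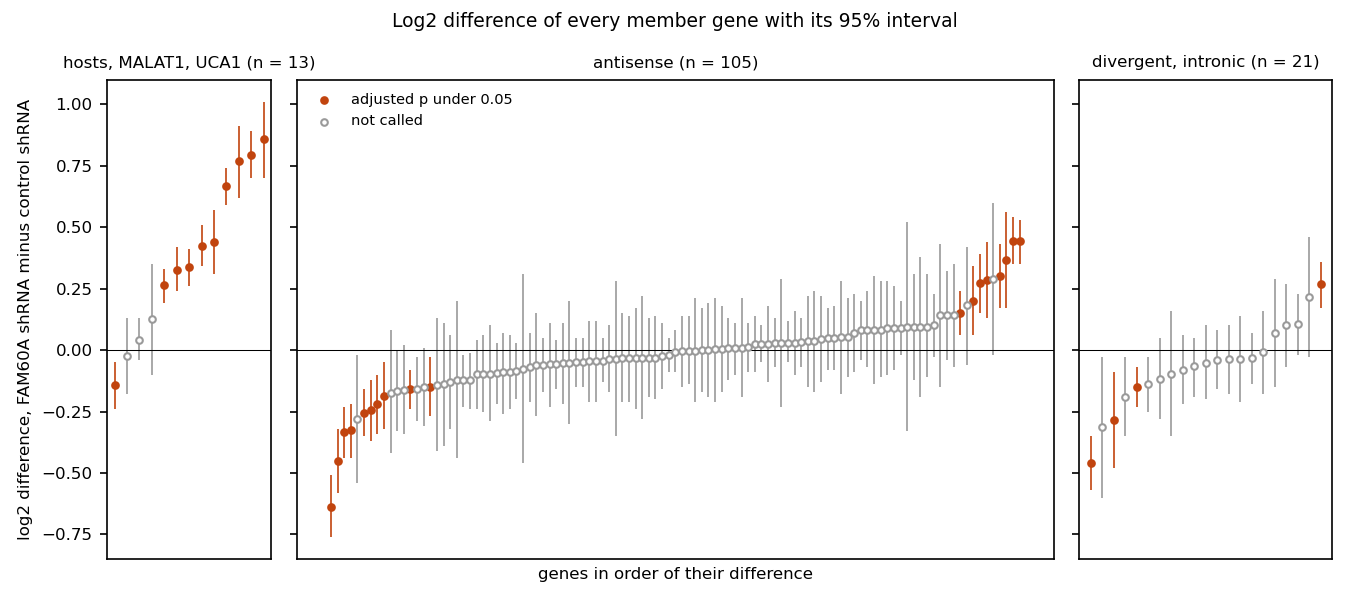
Log2 difference between labels, FAM60A shRNA minus control shRNA (vertical axis), of all 139 members in order of size, with 95% intervals. Filled points are the 9 hosts and other RNAs called higher, the host called lower, the 18 antisense and the 4 divergent or intronic genes called; most antisense genes lie within 0.1 of 0.

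ARRDC1-AS1 had the largest fall of all members. Its values were -0.26, -0.30 and -0.26 in the arrays labelled FAM60A shRNA, against 0.46, 0.26 and 0.37 in the arrays labelled control shRNA. The difference was -0.64 ± 0.053 (SE), a 1.55-fold lower signal, with 0.52 between the nearest arrays. ARRDC1, an arrestin-domain gene, differed by 0.01 and was not called, and EHMT1, the histone methyltransferase gene whose start lies 110 bases from that of ARRDC1-AS1 on the other strand, differed by -0.07 and was not called.

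UBQLN1-AS1 followed among the antisense genes, with -0.32, -0.23 and -0.16 in the arrays labelled FAM60A shRNA, against 0.30, 0.16 and 0.20 in the arrays labelled control shRNA. UBQLN1, which encodes the proteasome shuttle factor ubiquilin, differed by -0.04 beside the -0.45 ± 0.056 (SE) of its antisense RNA. CCNT2-AS1 differed by -0.33, EXOC3-AS1 by -0.33, ST20-AS1 by -0.25, KCNJ5-AS1 by -0.25, MBNL1-AS1 by -0.22 and ADAMTSL4-AS1 by -0.19. In CCNT2-AS1 the call came from 1 of 2 probe sets (-0.60, beside -0.07), and in ST20-AS1 likewise (-0.56, beside 0.05). The probe sets of these genes may report different transcripts, and the SE of a gene covers the arrays and not its probe sets. ADAMTSL4-AS1 lost its call under cyclic loess (-0.161), and without replicate 2 (-0.202) or 3 (-0.148) of FAM60A shRNA or replicate 2 (-0.141) or 3 (-0.192) of control shRNA.

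MRPL20-AS1 and HOXB-AS3 rose most among the antisense genes. MRPL20-AS1 had 0.26, 0.21 and 0.20 in the arrays labelled FAM60A shRNA, against -0.28, -0.20 and -0.18 in the arrays labelled control shRNA, with its probe sets at 0.59 and 0.30. HOXB-AS3, from the HOXB cluster and described in colon cancer cells as the source of a small peptide that binds the splicing factor HNRNPA1, had 0.24, 0.18 and 0.27 in the arrays labelled FAM60A shRNA, against -0.27, -0.19 and -0.18 in the arrays labelled control shRNA. Both had a log2 difference of 0.44 and no overlap, with SEs of 0.038 and 0.041. IDI2-AS1 (0.37), TMEM51-AS1 (0.30), SLCO4A1-AS1 (0.29), TENM3-AS1 (0.27), STARD7-AS1 (0.20) and ARHGEF17-AS1 (0.15) were the others called higher. In IDI2-AS1 the second array labelled FAM60A shRNA, at 0.06, stood well below 0.36 and 0.37 in the other two, and nearer to the arrays labelled control shRNA at -0.14, -0.10 and -0.06. STARD7-AS1 rested on 1 of its 2 probe sets (0.39, beside 0.01), ARHGEF17-AS1 more on one than the other (0.22, beside 0.08). STARD7-AS1 lost its call without replicate 2 (0.202) or 3 (0.153) of FAM60A shRNA or replicate 1 (0.161) or 3 (0.214) of control shRNA. ARHGEF17-AS1 lost it without replicate 2 of FAM60A shRNA (0.136) or replicate 1 (0.135) or 2 (0.131) of control shRNA. TMEM51-AS1 lost it without x_at and s_at probe sets (0.181) and with its probe set of largest variance (0.419). Each of these settings leaves 1 of its 2 probe sets, so neither was called alone.

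Among the divergent genes, FLVCR1-DT had -0.24, -0.15 and -0.28 in the arrays labelled FAM60A shRNA, against 0.27, 0.26 and 0.18 in the arrays labelled control shRNA. Its difference was -0.46 ± 0.046 (SE), and both probe sets fell, by 0.33 and by 0.58. FLVCR1, a transporter gene of haem and choline, was called higher by 0.20 ± 0.041 (SE). CTBP1-DT rose by 0.27 while CTBP1, a co-repressor gene, differed by -0.06 and was not called. PPP1R3B-DT (-0.29) and ANKRD13C-DT (-0.15) fell, and PPP1R3B-DT lost its call without replicate 1 (-0.28) or 2 (-0.204) of FAM60A shRNA or replicate 1 (-0.284) or 2 (-0.256) of control shRNA.

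For 122 of the 127 members named after another gene, that gene was measured too. The member was called in 22 of the pairs and the sense gene in 47, beside 44.9% of all genes. Both were called in 7 pairs, of which 5 moved the same way and 2 in opposite ways. Higher together were TMEM51-AS1 with TMEM51 (0.49), SLCO4A1-AS1 with the organic anion transporter gene SLCO4A1 (0.34) and TENM3-AS1 with TENM3 (0.24). Neither probe set of TMEM51-AS1 was called alone. TENM3-AS1 rests on a single probe set, named s_at, and whether its signal is separate from that of TENM3 was not tested. Lower together were CCNT2-AS1 with CCNT2 (-0.31), which encodes cyclin T2, and ANKRD13C-DT with ANKRD13C (-0.37). CCNT2 lost its call without replicate 2 (-0.271) or 3 (-0.286) of FAM60A shRNA or replicate 1 (-0.248) or 2 (-0.293) of control shRNA. It also lost the call with the median of its probe sets (-0.289). The opposite pairs were FLVCR1-DT with FLVCR1, and KCNJ5-AS1 with the potassium channel gene KCNJ5 (0.39). Signs were the same in 72 of the 122 pairs. Across the pairs Pearson's r was 0.08 and Spearman's rho 0.20, as a description over 122 pairs that share the same 6 arrays. Beside EPB41L4A-AS1, EPB41L4A differed by 0.01 and its divergent transcript EPB41L4A-DT by -0.03, and neither was called.

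**Figure D4:**
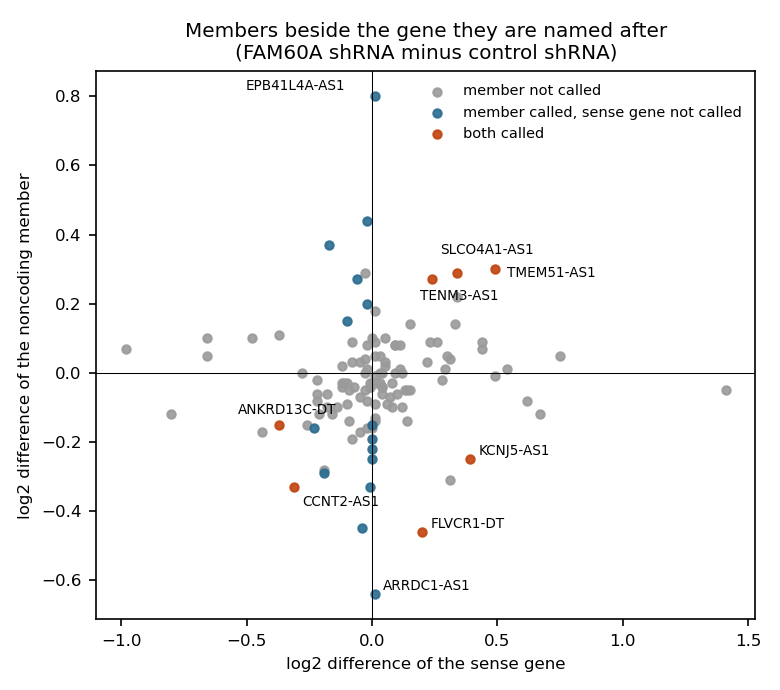
Log2 difference of each noncoding member (vertical axis) against that of the gene it is named after (horizontal axis), both FAM60A shRNA minus control shRNA by label, for 122 pairs. In 15 pairs the member was called and the sense gene was not, in 40 the sense gene alone, and in 7 both. Over all genes 44.9% were called.

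Sharing a promoter gave a second way to pair genes, though most of the pairs it gave are also sense pairs. By the starts that RefSeq annotates, 34 members had a measured gene starting on the other strand within 1000 bases upstream. Of these 34 pairs the member was called in 10 and the neighbour in 17, beside 44.9% of all genes. Both sides were called in 6 pairs, 4 moving the same way and 2 in opposite ways. Those of CCNT2-AS1, TMEM51-AS1, ANKRD13C-DT and FLVCR1-DT were already counted as sense pairs, so the counts are not separate results. SNHG1 and SLC3A2, the heavy subunit gene of several amino acid transporters, start 224 bases apart and were higher together, by 0.44 and 0.42 ± 0.029 (SE). MRPL20-AS1 and CCNL2, which encodes cyclin L2, start 195 bases apart and went opposite ways, with 0.44 for MRPL20-AS1 and -0.49 ± 0.032 (SE) for CCNL2. FLVCR1-DT and FLVCR1, with 137 bases between them, also went opposite ways.

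The stretches between the 2 starts are shown for these 3 pairs because the members of a pair read away from the same bases. Each line runs from the partner's start to the member's and on for 30 bases, 5′ to 3′ on the member's strand of GRCh38.p14. Capitals mark the first 30 bases of the member.
SNHG1 with SLC3A2 (chr11:62855856-62856109, - strand): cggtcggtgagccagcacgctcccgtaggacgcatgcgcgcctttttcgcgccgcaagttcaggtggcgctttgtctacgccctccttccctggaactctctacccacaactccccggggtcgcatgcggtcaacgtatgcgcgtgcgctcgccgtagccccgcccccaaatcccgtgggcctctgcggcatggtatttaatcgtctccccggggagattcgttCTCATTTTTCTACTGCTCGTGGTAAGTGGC
MRPL20-AS1 with CCNL2 (chr1:1399335-1399559, + strand): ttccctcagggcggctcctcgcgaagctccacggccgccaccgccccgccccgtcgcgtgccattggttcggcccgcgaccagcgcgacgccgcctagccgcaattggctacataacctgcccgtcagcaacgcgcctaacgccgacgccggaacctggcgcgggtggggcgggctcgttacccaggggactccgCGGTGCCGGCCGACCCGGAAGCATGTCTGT
FLVCR1-DT with FLVCR1 (chr1:212858109-212858275, - strand): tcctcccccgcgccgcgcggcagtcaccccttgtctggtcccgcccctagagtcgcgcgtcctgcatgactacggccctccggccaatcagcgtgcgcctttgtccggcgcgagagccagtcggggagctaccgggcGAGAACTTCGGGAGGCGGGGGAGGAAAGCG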

How the data were processed

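Total RNA of 6 samples was labelled with biotin and hybridised to Affymetrix arrays, 1 array per sample, per the labels' protocols. The authors deposited log2 values of 49395 probe sets, for which the submitters' processing notes name RMA. Within each probe set the 6 values had a median of 0 to 5e-07, so the deposited log2 values were centred. Base 2 was taken from RMA. Array medians ran from -0.015 to 0.010. The platform annotation gave 44994 probe sets 1 symbol, 1832 several and 2569 none. Another 40 probe sets carry a member's symbol beside others and were not used.

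Genes were means of their probe sets. A linear model was fitted to each with limma 3.58.1 (lmFit, eBayes; R 4.3.3), with Benjamini-Hochberg adjustment over 18132 genes and a threshold of 0.05. The fit was tested on simulated data. Named genes were all hosts, MALAT1 and UCA1, the 10 antisense, divergent or intronic genes with the largest called difference in each direction without overlap (9 were higher), their sense partners, SINHCAF, MYC and, of each list, the 4 with the smallest p. Other genes were named after their values were seen. MYC was in the rule as the neighbour of PVT1 and is left out with it. Members and lists were chosen with earlier results of these data known. Level classes used the rounding step of single-precision values, which doubles at levels of 2, 4 and 8. Sequences came from RefSeq tables of GRCh38.p14, with an entry for 103 of the 139 members, used also for neighbours, and no build is named in the deposited table. Alternatives covered normalization, the probe sets of a gene, dim probe sets, the replicate number and leaving out each array.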

Additional observations from a re-analysis of the deposited data

How the results depend on the processing

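Of the 7 snoRNA hosts called higher, 7 were called when any 1 array was left out, and under each other setting that kept them. Leaving out probe sets named x_at or s_at dropped 3 hosts from the 11, EPB41L4A-AS1, SNHG9 and SNHG11. SNHG11 alone made up the hosts called lower. Their number was 0 under cyclic loess, with the probe set of largest variance and with the replicate number as a block, and 0 to 1 without single arrays. It was also 0 without x_at or s_at probe sets, where SNHG11 was no longer measured. The hosts' median log2 difference of 0.327 was 0.342 after quantile normalization again, 0.353 after cyclic loess, 0.29 without x_at or s_at probe sets, 0.337 with the median of probe sets and also without the lowest level class, 0.369 with the probe set of largest variance, 0.295 with EPB41L4A-AS1 counted as antisense, and 0.30 to 0.351 without single arrays. The antisense genes called numbered 6 to 8 higher and 9 to 14 lower without single arrays. Their median of -0.00811 changed sign with the scaling, to 0.0087 after quantile normalization again and 0.0141 after cyclic loess, was -0.021 without x_at or s_at probe sets and -0.0228 without the lowest class, and ran from -0.0307 to 0.00899 without single arrays. No direction is therefore given for it. Genes called over all genes ran from 7366 to 7699 without single arrays, and the median of all genes from -0.0185 to 0.0136 over all settings.

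Same-numbered arrays of the groups deviated together only weakly, with correlations over genes of 0.161, 0.059 and 0.078, so the numbers were not taken to pair the samples, although 6 of 6 arrays correlated best with their own number. With the replicate block 8170 genes were called, 12 antisense genes were lower and 8 higher, and 7 hosts were higher. PPP1R3B-DT (-0.286) and SNHG11 (-0.144) lost the call under the block and PPP1R3B (-0.185) gained it.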

Other observations

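Several antisense and divergent RNAs that were not called start beside a gene that changed. Among the 34 members with a measured gene starting on the other strand, 17 of those genes were called, beside 44.9% of all genes. The loci below are therefore examples and no feature of these RNAs. TMX4-AS1 differed by -0.05 while TMX4, a thioredoxin-related membrane protein gene that starts 145 bases away on the other strand, was called higher by 1.41. MCM3AP-AS1 differed by 0.09 while LSS, which encodes lanosterol synthase of cholesterol synthesis, was called higher by 0.69 from a start 457 bases away. MCM3AP-AS1 was in the lowest level class and its arrays scattered, with 0.05, -0.05 and 0.50 in those labelled FAM60A shRNA and -0.05, 0.39 and -0.12 in those labelled control shRNA. RPP38-DT differed by -0.01 beside RPP38, a ribonuclease P subunit gene, at 0.49. That mean of RPP38-DT came from probe sets of opposite sign, at -0.2 and 0.19, and does not show an unchanged RNA. ICMT-DT had -0.10, -0.47 and -0.03 in the arrays labelled FAM60A shRNA, against 0.27, 0.03 and 0.04 in the arrays labelled control shRNA, and was not called at -0.31, while ICMT was called higher at 0.31.

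CDKN2B-AS1, which is known to help silence the CDKN2A and CDKN2B genes, had -0.26, -0.22 and 0.26 in the arrays labelled FAM60A shRNA, against 0.01, 0.15 and -0.01 in the arrays labelled control shRNA, from 1 probe set in the lowest level class, and was not called. CDKN2B was called higher, with a difference of 0.67 ± 0.053 (SE), and CDKN2A lower, with -0.18 ± 0.059 (SE). FMR1-AS1, from the fragile X locus, had 0.38, -0.08 and 0.17 in the arrays labelled FAM60A shRNA, against -0.29, -0.19 and 0.08 in the arrays labelled control shRNA, also in the lowest class, and was not called. Within both, arrays of 1 label spread more widely than the labels differed. NPSR1-AS1 had 10 probe sets, whose differences ran from -0.16 to 0.25.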
